A study of Mus musculus with 12 samples.

Results

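Immediate early genes that respond to the handling of tissue were examined in bulk RNA sequencing profiles of sorted mouse brain cells. The set was chosen by gene name, as genes known to be induced when tissue is dissociated, and consisted of *Fos*, *Fosb*, *Jun*, *Junb*, *Jund*, *Egr1*, *Atf3*, *Ier2*, *Dusp1* and *Zfp36*, and it made up 10 of the 47643 gene rows in the count table, of which 18571 had at least 1 count. Every member had counts in at least 1 sample.

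The samples came from the brains of 5 aged male p16-3MR mice on a C57BL/6 background, which were 113, 115, 116, 116 and 116 weeks old (mice 1 to 5). In this reporter line a red fluorescent protein (RFP) is driven by the p16 promoter. Brains were broken up with a protease and mechanical dissociation at 4 ℃, and viable nucleated cells were sorted by fluorescence, so that each mouse gave 1 sample with low RFP (RFPneg, n = 5) and 1 with high RFP (RFPpos, n = 5). The comparison asked how the profile of cells with an active p16 promoter differed from that of the other brain cells of the same animals, and no undissociated brain, young animal or mouse without the transgene was part of it. The labels call the tissue brain, and markers of microglia, astrocytes, oligodendrocytes and endothelial cells were all detected.

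Immediate early genes are transcribed within minutes of a stimulus without the need for new protein. They are switched on by transcription factors that are already in the cell, such as CREB and the serum response factor with its partners, when kinase cascades, among them the MAP kinases, reach these factors. FOS, JUN and ATF proteins pair through leucine zippers to form the AP-1 transcription factor, while DUSP1 and ZFP36 act as brakes, by dephosphorylating MAP kinases and by directing the decay of AU-rich messenger RNAs. In microglia, the immune cells of the brain, these genes are known to respond strongly when tissue is dissociated with warm enzymes, and their transcripts are used to recognise that response.

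Libraries were shallow. Counts on genes numbered 177287, 196103, 415834, 248471 and 299680 in the RFPneg samples of mice 1 to 5 and 222560, 289713, 223052, 250482 and 242798 in the RFPpos samples. A value of 0 allowed up to 3 counts, or 7.21 to 16.9 CPM (a gene's counts scaled to a common library total) in an RFPneg sample and 10.4 to 13.5 CPM in an RFPpos sample, and this limit covers counting error only. The protocol reads a tag near the 3′ end of each transcript, so that CPM values can be set side by side between genes without dividing by length. The members together had 783 counts in the RFPneg samples and 550 in the RFPpos samples. Their summed level was 575 ± 125 CPM (SD, n = 5) in RFPneg and 446 ± 71.0 CPM (SD, n = 5) in RFPpos, and the ranges overlapped. The RFPpos sample lay above the RFPneg sample of the same mouse in 1 of 5 mice, mouse 2.

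Genes were tested with edgeR's quasi-likelihood test, with library sizes scaled by the trimmed mean of M values (TMM) and the mouse as a block, and with Benjamini-Hochberg adjustment over all genes, which limits the share of false calls among the genes called; edgeR stands for this test below. By it, 0 of the 4 members that passed the minimum count (*Jun*, *Junb*, *Jund* and *Zfp36*) were higher in RFPpos and 0 were lower at an adjusted p-value under 0.05. Of all 4210 genes tested, 10.1% passed as higher and 11.6% as lower. At an unadjusted p under 0.05 the count of members was 1, *Jund*, on the lower side, as it was for 17.6% of all genes tested. At an adjusted p under 0.05 the count of members that were lower was 0 with DESeq2, where 395 of all 4210 genes were lower, and 1, *Jund*, with limma and with edgeR's likelihood ratio test, where 504 and 598 were. The other 6 members fell under the minimum count. In a second fit on the 11103 genes with at least 15 counts, which held 4 of these 6, *Dusp1* alone passed, as lower, where 8.2% of all genes passed as lower and 5.2% as higher. *Fos* and *Fosb* had fewer than 15 counts in all.

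**Figure D1:**
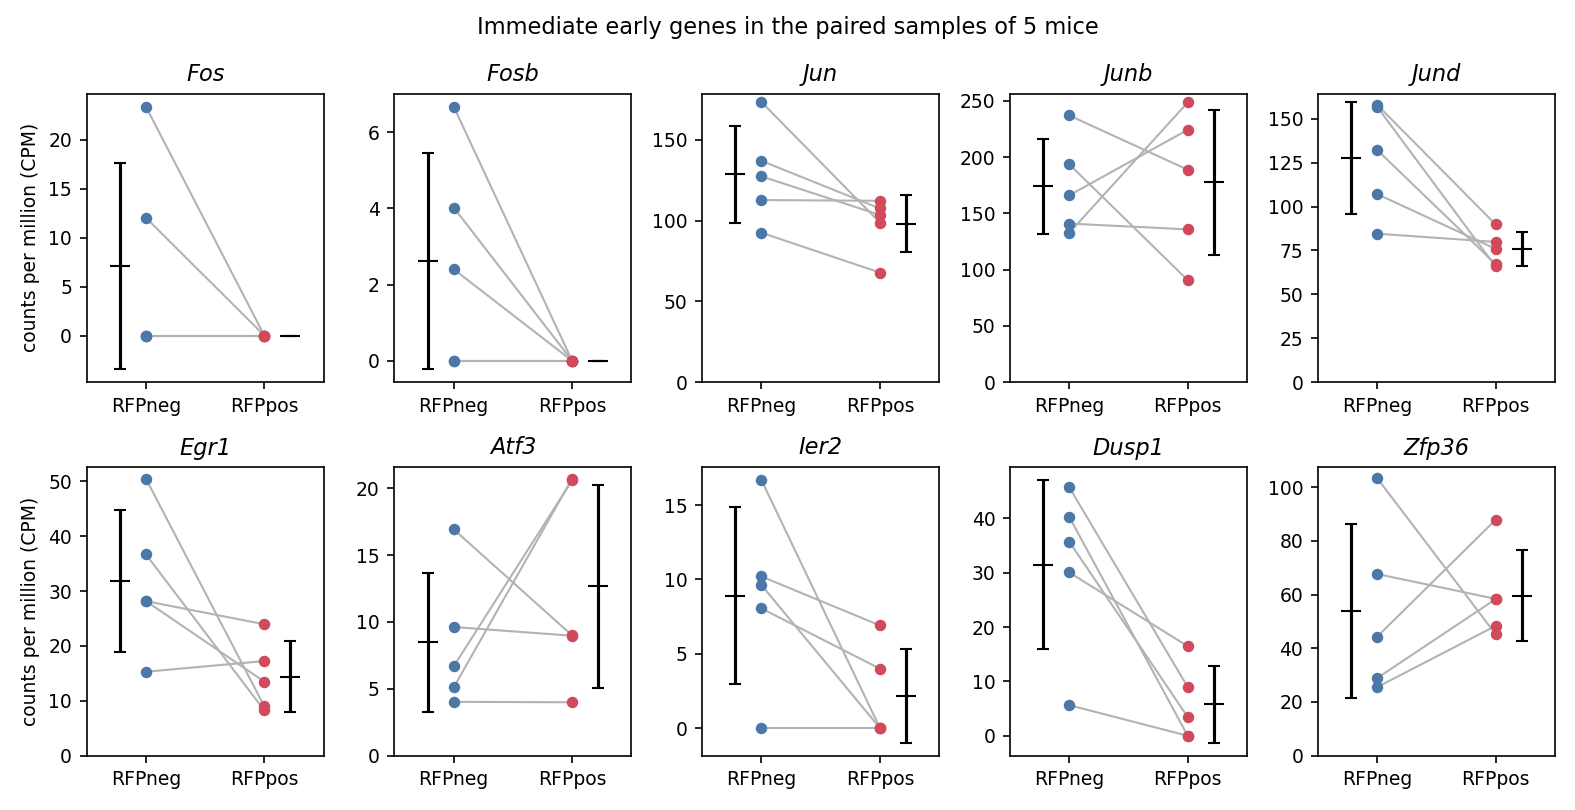
Level of each of the 10 immediate early genes in CPM (vertical axes, a scale for each gene) in the RFPneg and RFPpos samples of 5 mice. Points are samples, lines join the samples of a mouse, and bars give mean and SD (n = 5); *Dusp1*, *Jun* and *Jund* were lower in RFPpos in 5 of 5 mice by CPM, and *Jun* in 4 of 5 after TMM scaling.

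*Fos* encodes the AP-1 subunit whose transcript is the textbook readout of recent stimulation. It lies on GRCm38 chromosome 12 (85473890 to 85477273, plus strand). Its counts in the RFPneg samples of mice 1 to 5 were 0, 0, 5, 0 and 7, and they were 0, 0, 0, 0 and 0 in the RFPpos samples. Thus *Fos* was seen in 2 samples alone, the RFPneg samples of mice 3 and 5, which were also the deepest libraries. With 3 counts allowed for the 5 RFPpos libraries together, the pooled RFPneg level was 3.67 times that limit. This value took the RFPneg counts as exact and left out the spread between mice, so it is not a lower bound. It dropped to 2.55 without mouse 3 and to 1.58 without mouse 5. In the fit without a filter on counts *Fos* did not pass (adjusted p = 0.540, edgeR). *Fosb*, its close relative, had 0, 0, 1, 1 and 2 counts in RFPneg and 0 in each RFPpos sample, too few to give a fold, and did not pass (adjusted p = 0.879, edgeR).

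The promoters of *Fos*, *Jun* and *Dusp1* are shown to compare which elements of inducible genes they hold. They were taken from RefSeq (GRCm38.p6) as the 250 bases before the annotated start, with TATAAA, TGACGTCA (the cyclic AMP response element, CRE), CGTCA (its core), TGACTCA (the AP-1 site), the CArG box and GGGCGG in capitals wherever they matched on either strand. CGTCA is also part of TGACGTCA. Of the 10 members, 8 had an entry, and *Egr1* and *Ier2* had none.
Fos promoter (chr12:85473640-85473889, plus strand): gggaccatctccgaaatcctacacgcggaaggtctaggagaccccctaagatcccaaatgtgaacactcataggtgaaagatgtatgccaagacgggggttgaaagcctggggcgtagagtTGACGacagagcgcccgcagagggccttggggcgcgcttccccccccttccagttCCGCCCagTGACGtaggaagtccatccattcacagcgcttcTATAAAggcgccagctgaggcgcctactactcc
Jun promoter (chr4:95052223-95052472, minus strand): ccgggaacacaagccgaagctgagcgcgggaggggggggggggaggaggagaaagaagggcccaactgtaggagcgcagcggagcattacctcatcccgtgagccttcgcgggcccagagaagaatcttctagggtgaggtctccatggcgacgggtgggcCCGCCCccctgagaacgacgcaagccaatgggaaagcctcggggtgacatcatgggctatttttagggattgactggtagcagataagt
Dusp1 promoter (chr17:26508473-26508722, minus strand): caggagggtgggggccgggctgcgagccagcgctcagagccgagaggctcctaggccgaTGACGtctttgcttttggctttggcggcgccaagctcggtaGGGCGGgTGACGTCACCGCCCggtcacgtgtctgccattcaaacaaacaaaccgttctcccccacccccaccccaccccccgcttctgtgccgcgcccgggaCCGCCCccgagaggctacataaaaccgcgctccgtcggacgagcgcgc

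The *Jun* window held none of the motifs looked for but 1 GGGCGG. The *Fos* window held TATAAA, which 12.4% of the 32851 promoters in the table held, and CGTCA in 2 places. *Dusp1* held the complete TGACGTCA, found in 1.55% of all promoters, flanked by GGGCGG on either side. CGTCA occurred in 5 of the 8 members' windows and in 17.8% of all, and GGGCGG in 6 of 8 and in 32.7% of all. TGACTCA was in 0 of 8 and in 4.46% of all, and the CArG box in 1 of 8, *Zfp36*, and in 1.47% of all. A match describes letters in this window and does not show that a factor bound there. The lack of a match does not speak to sites outside the 250 bases, to sites that differ by a letter, or to the members without an entry.

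*Jun*, *Junb* and *Jund* encode the JUN subunits, which pair with FOS proteins or with each other. They were the most abundant members and held 73.9% of the members' counts in RFPneg and 78.7% in RFPpos. *Junb* (chromosome 8, 84974484 to 84978718, minus strand) stood highest, with 237, 133, 166, 141 and 194 CPM in RFPneg and 189, 249, 224, 136 and 90.6 CPM in RFPpos. The populations overlapped throughout, with the RFPpos sample above its partner in mice 2 and 3 and below it in mice 1, 4 and 5. The fitted log2 fold change of *Junb* was −0.01 (standard error 0.25, adjusted p = 0.991, edgeR), with a 95% interval from −0.53 to 0.51.

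*Jun* (chromosome 4, 95049034 to 95052222, minus strand) had 113, 127, 137, 92.6 and 174 CPM in RFPneg and 112, 104, 108, 67.9 and 98.8 CPM in RFPpos. The RFPpos value was below its partner in 5 of 5 mice, by less than 1 CPM in mouse 1, where TMM scaling turned the order (113 and 123 CPM) and left 4 of 5, and the groups overlapped. On the log2 scale the fit put *Jun* at −0.39 with a standard error of 0.25 (adjusted p = 0.287, edgeR). *Jund*, which is known for a steadier expression than its relatives, had 158, 107, 132, 84.5 and 157 CPM in RFPneg and 89.9, 75.9, 67.2, 79.8 and 65.9 CPM in RFPpos. All but 1 of its RFPneg values lay above every RFPpos value, the exception being mouse 4 with 84.5 CPM. Its log2 fold change was −0.73 (standard error 0.26, 95% interval −1.28 to −0.18), lower in 5 of 5 mice, and the adjusted p of 0.0534 (edgeR) missed the threshold. *Jund* passed with the likelihood ratio test (adjusted p = 0.0272), with limma (0.0339), with median-of-ratios scaling (0.0452), without the mouse block (0.0374) and without mouse 4 (0.0444). It also passed with the microglia scaling (adjusted p = 4.87e-05, edgeR), where 69% of all genes passed as lower and 0.333% as higher. It did not pass with DESeq2 (adjusted p = 0.160), library size alone (0.0635), genes of at least 15 counts (0.164), no filter (0.248) or thinned counts (0.0651), without mouse 1 (0.113), mouse 2 (0.0956), mouse 3 (0.174) or mouse 5 (0.151), or without mice 3 and 5 together (0.437).

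Ratios between these genes within a sample do not depend on how libraries are scaled. *Junb* counts were 1.50, 1.24, 1.25, 1.67 and 1.23 times the *Jund* counts in the RFPneg samples and 2.10, 3.27, 3.33, 1.70 and 1.38 times in the RFPpos samples. The ratio was higher in RFPpos in 5 of 5 mice, with a mean difference of 0.70 on the log2 scale (SD of the difference 0.67, n = 5), and by a narrow margin in mice 4 and 5. This pair was picked from 3 ratios after their values were seen, and no test was made of it. *Jun* to *Jund* was higher in RFPpos in 4 of 5 mice and *Junb* to *Jun* in 3 of 5. *Junb* made up 40.4% ± 4.74 (SD, n = 5) of the 3 genes' counts in RFPneg and 49.2% ± 8.92 (SD, n = 5) in RFPpos, and *Jund* 29.4% ± 1.74 and 22.3% ± 4.94 (SD, n = 5). The strand used for counting was not given in the sources used here, and on the opposite strand *Junb* overlaps *Prdx2* (212 counts in all) and *Jun* overlaps *Junos* (5 counts).

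**Figure D2:**
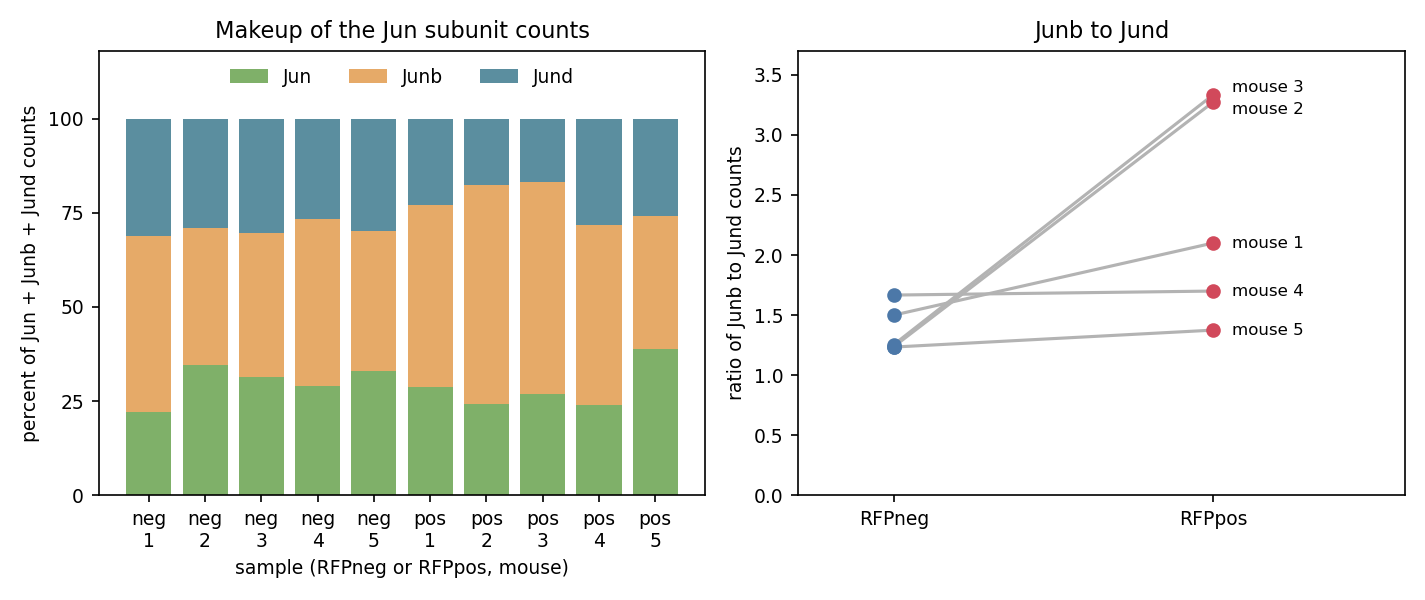
Left, *Jun*, *Junb* and *Jund* as percent of their summed counts in each of the 10 samples; right, the ratio of *Junb* to *Jund* counts, with lines joining the samples of a mouse. The ratio was between 1.23 and 1.67 in RFPneg and between 1.38 and 3.33 in RFPpos.

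*Egr1*, a zinc finger transcription factor, *Atf3*, a stress-induced partner of JUN proteins, and *Ier2*, a small nuclear protein, were all sparse. *Egr1* had 5, 3, 21, 7 and 11 counts in RFPneg and 3, 5, 2, 6 and 2 in RFPpos, and was lower in RFPpos in 4 of 5 mice. Its log2 fold change in the second fit was −1.01 (standard error 0.62, adjusted p = 0.347, edgeR) and moved to −0.25 without mice 3 and 5. *Atf3* had between 1 and 4 counts in each RFPneg sample and between 1 and 6 in each RFPpos sample (log2 fold change 0.64, standard error 0.96, adjusted p = 0.786, edgeR). *Ier2* had 13 counts in RFPneg and 3 in RFPpos, a pooled ratio of 0.251 with an exact 95% counting interval from 0.0459 to 0.914, and did not pass (adjusted p = 0.469, edgeR). The direction of these genes was thus within the error between mice at this depth.

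*Dusp1* encodes the phosphatase that switches off the p38, JNK and ERK kinases, and it was the member that passed. It is annotated on chromosome 17 (26505590 to 26562128, minus strand), where its longest isoform spans other genes. Its counts were 1, 7, 19, 10 and 9 in the RFPneg samples and 0, 1, 2, 0 and 4 in the RFPpos samples. In levels this was 5.64, 35.7, 45.7, 40.2 and 30.0 CPM against 0, 3.45, 8.97, 0 and 16.5 CPM. Mouse 1 had the lowest RFPneg value, which was the reason the groups overlapped, and in the other 4 mice every RFPneg value exceeded every RFPpos value. The log2 fold change in the second fit was −2.39 (standard error 0.78, 95% interval −3.93 to −0.86), lower in 5 of 5 mice, with an adjusted p of 0.0219 (edgeR). In mouse 1 the direction rested on 1 count against 0, where a value of 0 allowed up to 3 counts. The ratio of pooled counts, 7 against 46, was 0.166 with an exact 95% interval from 0.0631 to 0.369, which leaves out the spread between mice.

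The call for *Dusp1* rested on few counts, with an error estimated largely from other genes. It was lost with DESeq2 (adjusted p = 0.0761) and when mouse 2 (0.0874), mouse 3 (0.112) or mouse 4 (0.165) was left out, or mice 3 and 5 together (0.0650), while the log2 fold change stayed between −3.22 and −1.96 over the 5 fits that left out 1 mouse and was −3.94 without mice 3 and 5. Genes that overlap the long isoform include *Ergic1* on the opposite strand, which had 95 counts in all against 46 in RFPneg and 7 in RFPpos for *Dusp1*, so that some counts may belong to either gene.

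*Zfp36* encodes tristetraprolin, which binds AU-rich elements in the 3′ ends of messenger RNAs, including its own. It had 67.7, 25.5, 28.9, 44.3 and 103 CPM in RFPneg and 58.4, 48.3, 58.3, 87.8 and 45.3 CPM in RFPpos. The spread was wider in RFPneg, where the SD of log2 CPM was 0.72 and exceeded that of 92.4% of the genes tested, against 25.7% in RFPpos. With a fitted value of 0.24 on the log2 scale (standard error 0.39, adjusted p = 0.725, edgeR) it did not pass, and it was higher in RFPpos in 3 of 5 mice. In the longest annotated 3′ untranslated stretch, TATTTAT, the core of such elements, occurred at least once in 7 of the 10 members and in 27.6% of 21020 genes. It occurred 3 times in *Dusp1* and in *Zfp36* and 2 times in *Fos*, where 10.4% of all genes had 2 or more.

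The order of levels was *Junb*, *Jun*, *Jund*, *Zfp36*, *Egr1*, *Dusp1* and then *Ier2*, *Atf3*, *Fos* and *Fosb* in RFPneg. *Jun* with 129 ± 30.2 CPM and *Jund* with 128 ± 31.9 CPM (SD, n = 5) did not differ beyond their spread there, nor did *Egr1*, with a mean of 31.8 CPM (range 15.3 to 50.5, n = 5), and *Dusp1*, with a mean of 31.5 CPM (range 5.64 to 45.7, n = 5). In RFPpos *Junb* led with 178 ± 64.5 CPM, followed by *Jun* with 98.0 ± 17.6 CPM, *Jund* with 75.8 ± 9.81 CPM and *Zfp36* with 59.6 ± 16.8 CPM (SD, n = 5), and *Egr1*, *Atf3*, *Dusp1* and *Ier2* lay at 14.4 CPM or under. *Dusp1* and *Egr1*, level with each other in RFPneg, were at 5.78 ± 7.01 and 14.4 ± 6.48 CPM (SD, n = 5) in RFPpos, where their values overlapped.

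Cell type markers moved between the populations at the same time. The 20 microglia markers took 2.13% ± 0.434 (SD, n = 5) of counts in RFPneg and 4.36% ± 0.433 (SD, n = 5) in RFPpos, higher in 5 of 5 mice and in 20 of 20 genes, led by *Ctss* (4144 and 9711 CPM). The endothelial list went from 0.563% to 0.0215% (*Flt1*, 1285 and 32.9 CPM), monocytes and neutrophils from 0.395% to 0.00791% (*S100a8*, 1952 and 23.1 CPM) and oligodendrocytes from 0.188% to 0.0242% (*Mbp*, 574 and 129 CPM), each lower in 5 of 5 mice. The astrocyte list took 0.491% and 0.405% (*Slc1a2*, 1226 and 789 CPM) and was higher in RFPpos in 2 of 5 mice. CNS-associated macrophages took 0.0236% and 0.0256% (*Mrc1*, 52.5 and 79.5 CPM), also higher in 2 of 5. Their part in the values of the immediate early genes was not tested. In bulk samples, fewer cells of a type and less RNA per cell cannot be told apart.

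The other 6 lists were lower in RFPpos in 5 of 5 mice. These were oligodendrocyte progenitors with 0.0105% and 0.00117% (*Vcan*, 37.6 and 8.31 CPM), neurons with 0.0413% and 0.0136% (*Meg3*, 130 and 53.6 CPM), and mural cells and fibroblasts with 0.0547% and 0.0120% (*Vtn*, 119 and 48.4 CPM). Lymphocytes had 0.0105% and 0.000520% (*Trbc2*, 38.2 and 0 CPM), choroid plexus and ependymal cells 0.238% and 0.0606% (*Ttr*, 2307 and 586 CPM), and red blood cells 0.117% and 0.00562% (*Hbb-bs*, 786 and 35.4 CPM). No marker gene of these lists was at 0 in every sample. Counts that fell on no gene took 34.9% ± 2.24 (SD, n = 5) of the RFPneg and 41.5% ± 4.27 (SD, n = 5) of the RFPpos totals, higher in 5 of 5 mice (two-sided exact permutation test within mice, p = 0.0625, the smallest value 5 pairs allow), and its part was not tested either.

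**Figure D3:**
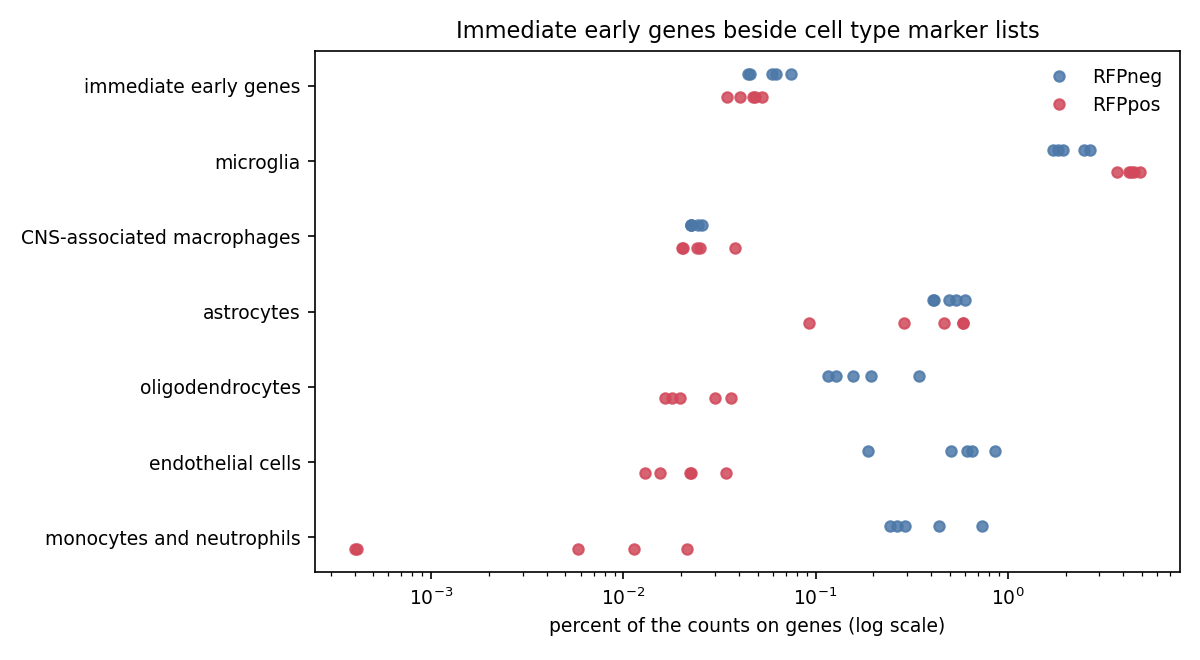
Summed counts of each gene list as percent of the counts on genes (horizontal axis, log scale) in the 5 RFPneg and 5 RFPpos samples; each point is a sample. The immediate early genes overlapped between the populations, while the microglia list did not (1.72% to 2.68% in RFPneg and 3.72% to 4.91% in RFPpos).

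Set against microglial transcripts, the members looked different. There were 2.33, 2.52, 3.08, 2.60 and 2.98 member counts for every 100 counts of the microglia list in the RFPneg samples, and 0.962, 1.23, 1.07, 0.922 and 0.931 in the RFPpos samples. The microglia list alone separated the groups (1.72% to 2.68% and 3.72% to 4.91% of counts). Genes whose share changed little therefore fall on this ratio too, and how many other genes would not overlap on it was not counted. When library sizes were taken from the microglia list, the log2 fold changes of all genes moved by a median of −1.04. *Jun* (−1.43), *Junb* (−1.06) and *Jund* (−1.77) were then lower at an adjusted p under 0.05 and *Zfp36* (−0.78, adjusted p = 0.0763, edgeR) did not pass. Under that scaling 69% of all genes passed as lower and 0.333% as higher, so that 3 of 4 members is close to the background. Likewise *Dusp1* (−3.46) and *Egr1* (−2.14) passed in the second fit, where 48.7% of genes passed as lower and 0.144% as higher. RFPneg samples hold other cell types that may express these genes as well, and the share of the members' counts that came from microglia was not measured.

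**Figure D4:**
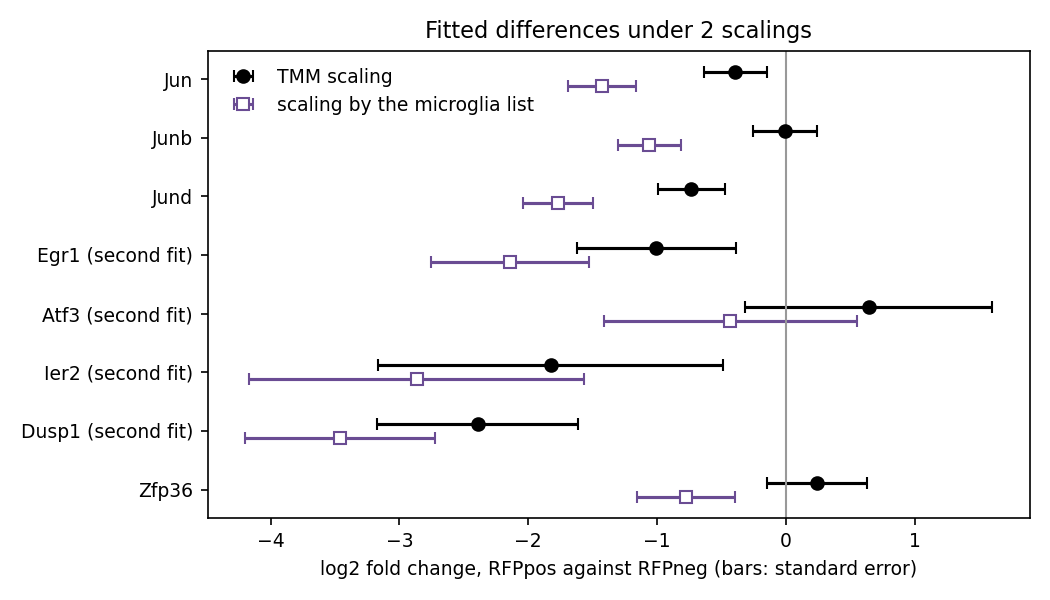
Log2 fold change of RFPpos against RFPneg with its standard error for the 8 members with at least 15 counts, under TMM scaling (filled circles) and by the microglia list (open squares). Each value moved down by about the median shift of −1.04, which turned the sign for *Zfp36* and *Atf3*.

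How the members varied among mice was described with the population means removed. The 6 pairs formed by *Jun*, *Junb*, *Jund* and *Zfp36* had correlations between 0.03 and 0.53 (median 0.40) over the 10 samples. The 5 other genes whose deviations were most like the mean of these 4 members were *Klhl7* (Pearson r = 0.909, Spearman rho = 0.964), *P2ry12* (0.908, 0.927), *C1qa* (0.901, 0.927), *Acox3* (0.899, 0.915) and *Snx18* (0.893, 0.927), all over 10 samples. They were the highest of 4206 genes, which makes large values likely, and no p is given. *P2ry12* and *C1qa* are microglia markers of the list above.

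Relatives of the members were read from lists of the same pathway. Of 50 other immediate early genes, 15 could be tested, of which 1 was higher (6.67%) and 4 lower (26.7%) in RFPpos, beside 10.1% and 11.6% of all genes, with a median log2 fold change of −0.08 against −0.03 over all 4210 genes. Under the microglia scaling 0 of these 15 were higher and 12 lower, with a median of −1.12. By that scaling 69% of all genes passed as lower and 0.333% as higher. In the second fit 35 of the 50 were tested, 1 was higher and 7 were lower, with a median of −0.58 against −0.10 over all 11103 genes, of which 5.2% passed as higher and 8.2% as lower. *Klf4* and *Klf2*, transcription factors known from blood vessel lining and from blood cells, had the smallest p-values. *Klf4* fell from 169 ± 63.3 to 3.78 ± 5.47 CPM (SD, n = 5; log2 fold change −5.33, standard error 0.48, adjusted p = 1.71e-07, edgeR) and *Klf2* from 236 ± 103 to 20.9 ± 17.9 CPM (SD, n = 5; −3.56, standard error 0.38, adjusted p = 1.34e-06, edgeR). *Ier3* followed with a log2 fold change of −1.79. These 3 genes were lower in 5 of 5 mice, as were the endothelial markers, whose part was not tested. *Dusp6*, an ERK phosphatase, was higher, from 274 ± 57.6 to 496 ± 128 CPM (SD, n = 5; log2 fold change 0.83, standard error 0.20, adjusted p = 0.00493, edgeR), but not under the microglia scaling, where its value was −0.21.

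Among 31 regulators of the MAP kinase, serum response factor and CREB pathways, 16 were tested, 2 passed as higher (12.5%) and 1 as lower (6.25%), near the shares of all genes (10.1% and 11.6%), with a median of −0.04. Under the microglia scaling 0 of these 16 passed as higher and 12 as lower, beside 0.333% and 69% of all genes. *Mrtfb*, a serum response factor partner, was lower (log2 fold change −2.13, adjusted p = 0.00101, edgeR), and the kinases *Rps6ka1* (1.08, adjusted p = 0.0128) and *Map2k1* (0.77, adjusted p = 0.0343) were higher, with values of 0.06 and −0.27 under the microglia scaling. Of 20 other bZIP factors that can join AP-1, 9 were tested, 3 were higher (33.3%) and 0 lower (edgeR), with a median of 0.39. *Maf* (760 ± 180 and 1565 ± 149 CPM, SD, n = 5; log2 fold change 1.06, adjusted p = 0.000247, edgeR), known from macrophages and microglia, was higher in 5 of 5 mice, and *Bach1* (1.00, adjusted p = 0.0191, edgeR) and *Mafg* (0.69, adjusted p = 0.0429, edgeR) passed as well. None of these passed as higher under the microglia scaling, where the median of the list was −0.65 and 4 genes were lower, while 69% of all genes passed as lower and 0.333% as higher. Of 20 transcripts linked to microglia activated outside the body, chiefly cytokines, 5 were tested, 0 were higher and 1 was lower (edgeR), *Id2*, from 361 ± 53.2 to 143 ± 75.1 CPM (SD, n = 5; log2 fold change −1.45, adjusted p = 0.000127, edgeR). With the microglia scaling 0 of these 5 were higher and 3 lower. In the first fit the medians of these 3 lists were −0.04, 0.39 and 0.13 under TMM scaling and −1.09, −0.65 and −0.93 under the microglia scaling. The cytokine list took 0.0723% of counts in RFPneg and 0.0574% in RFPpos, higher in RFPpos in 0 of 5 mice. The second fit (TMM scaling) gave medians of 0.09 for 29 pathway regulators (2 higher, 1 lower) and 0.36 for 12 bZIP factors (3 higher, 0 lower). For 13 of the cytokine list it gave 0.39 (0 higher, 2 lower). Of all genes in the second fit, 5.2% were higher and 8.2% lower.

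**Figure D5:**
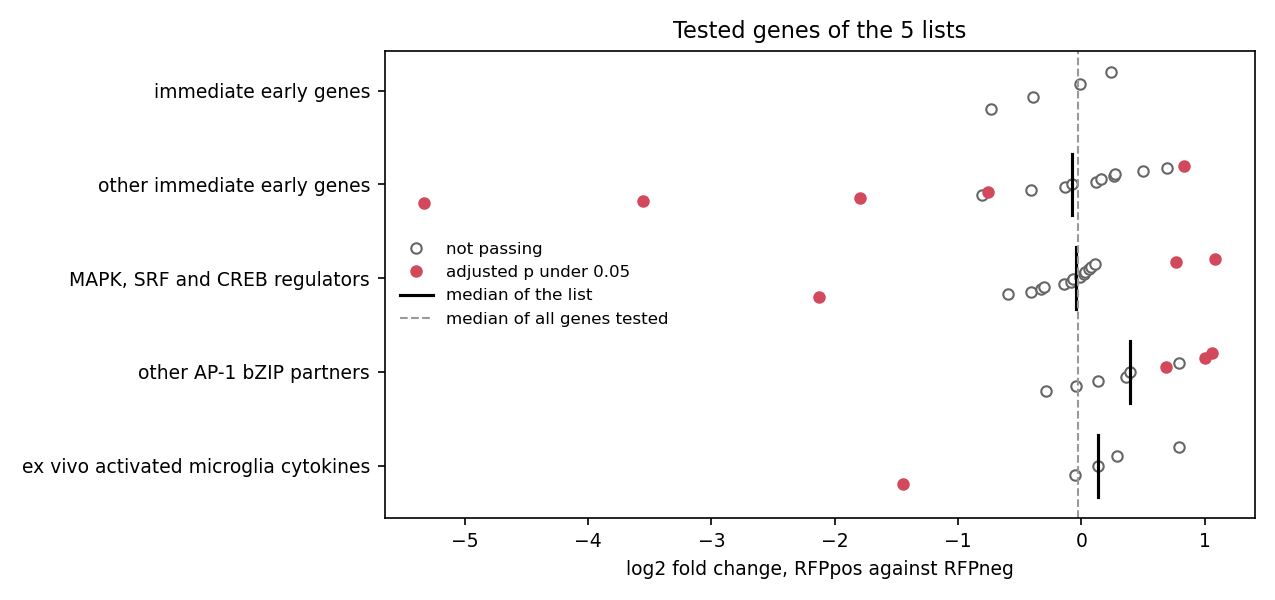
Log2 fold change of RFPpos against RFPneg (horizontal axis) for the tested genes of the 5 lists under TMM scaling; filled points passed at an adjusted p under 0.05, black bars are medians of the 4 pathway lists and the dashed line is the median of all genes tested (−0.03). The 4 members tested did not pass, and 3 of 9 bZIP partners passed as higher, against 0 of 9 under the microglia scaling, which moves all genes by a median of −1.04 and where 0.333% of all genes passed as higher.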

How the data were processed

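The deposited values are counts per gene, which the authors made with the Lexogen pipeline for QuantSeq 3′ FWD libraries with unique molecular identifiers and did not normalise. The aligner settings, annotation and strand setting of the bulk data were not given in the sources used here. Counts on no gene (32.1% to 48.6% per sample) and ambiguous counts (0.295% to 0.436%) stayed out of library sizes. Symbols were found for 47224 of 47643 gene identifiers, and coordinates came from GENCODE M21 (GRCm38). CPM relate a gene's counts to all counts on genes. The single-cell samples were not analysed here.

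Counts were fitted with edgeR 4.0.16 in R 4.3.3 (quasi-likelihood test, TMM scaling, mouse as a block, Benjamini-Hochberg adjustment over all genes tested), on genes that filterByExpr kept with a minimum count of 10 (40.7 CPM in at least 5 samples). Members under it were fitted with all genes of at least 15 counts. Standard errors were obtained as the log2 fold change over the root of the F statistic. The fit was tested on simulated data. The blocks rest on the methods, which state that both populations came from the same mice; the correlations of deviations within mice were 0.22, −0.04, 0.14, −0.01 and 0.02. P-values of the fits set a difference against the spread between these mice. In edgeR the estimate of that spread was drawn towards the one seen in other genes. For sparse genes of the second fit, *Dusp1* among them, it rested largely on the other genes.

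Named genes were the 10 members, the 3 genes with the smallest p in each direction that passed in each pathway list, the 5 genes most correlated with the members, and the most abundant gene of each marker list. The members and lists were chosen with earlier results of these data known, and 1 gene of the bZIP list and 1 of the oligodendrocyte list were not used here. Alternatives tried were scaling by the microglia list, by median of ratios or by library size alone, other filters, the likelihood ratio test, DESeq2 1.42.0, limma 3.58.1 with voom weights, no block, a log2 fold change above 1 and each mouse left out. Leaving out mice 3 and 5, thinning to 177287 counts and the search for TATTTAT were added after seeing the data. Protein sequences were not used here.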

Additional observations from a re-analysis of the deposited data

Results flagged for a closer look

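In 3 of the 60 sets of 5 samples looked at, 1 sample stood apart from the other 4 by more than 0.71 of the whole range, and chance gives about 1 in 20. None of the 3 was an immediate early gene. The share of the CNS-associated macrophage list in RFPpos was 0.0383% in mouse 2 and 0.0202% to 0.0251% in the others. The lymphocyte share in RFPpos was 0.00179% in mouse 3 and 0% to 0.00041% in the others, which rests on few counts. The choroid plexus and ependymal share in RFPpos was 0.163% in mouse 4 and 0.0173% to 0.0441% in the others.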

How the results depend on the processing

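The count of members passing the minimum count that were lower in RFPpos was 0, and became 1 with median-of-ratios scaling, the likelihood ratio test, limma and no replicate block (*Jund* each time, so that the paired fit and the fit without the block differ by 1 call), 1 with genes of at least 15 counts and with no filter (*Dusp1*, through the members added), and 3 with the microglia scaling; it lay between 0 and 1 over the fits that left out a mouse. None was higher under any alternative. Under the minimum count 1 member was lower, 2 with the microglia scaling, 0 with DESeq2 and without mice 3 and 5, and 0 to 1 without each mouse. Over all genes, 427 were higher and 489 lower; the microglia scaling gave 14 and 2903, genes of at least 15 counts gave 911 lower, no filter 834 lower, and a log2 fold change above 1 left 242 higher. *Junb*, near 0 in the fit and −1.06 with the microglia scaling, changed sign to 0.10 with at least 15 counts, 0.0629 with no filter, 0.0132 with limma, 0.0310 with no block, 0.17 without mice 3 and 5 and 0.0839 when thinned, and lay between −0.23 and 0.23 over the fits that left out a mouse. With the microglia scaling *Zfp36* changed to −0.78 and *Atf3* to −0.43. Of 124 values of single members under alternatives, 99 kept direction and side of the threshold. These 99 include *Ier2* with DESeq2, which kept its direction but had no adjusted p. The causes were not tested, beyond the filters that change which genes are tested and the scaling that shifts every gene. At this depth the members under the minimum count were fitted with little precision. Standard errors of the log2 fold change were 2.16 for *Fos* and 2.42 for *Fosb* without a filter. In the second fit they were 1.34 for *Ier2*, 0.96 for *Atf3*, 0.78 for *Dusp1* and 0.62 for *Egr1*.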
